A study of Mus musculus with 28 samples.

Results

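The genes described here encode the enzymes of glycolysis with lactate dehydrogenase, of the pentose phosphate pathway and of the tricarboxylic acid (TCA) cycle, together with the pyruvate dehydrogenase step that joins glycolysis to the cycle. The members were chosen by gene symbol and not by their values, though with earlier results of these data known. Where a symbol had several transcripts the one with the highest mean level stood for the gene. All 49 members were found among 22470 gene symbols: 16 of glycolysis and lactate, 7 of the pyruvate dehydrogenase link, 19 of the TCA cycle and 7 of the pentose phosphate pathway. Every one of the 49 passed the low-value limit of both kinds of comparison used here.

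The cells were CD4+ T cells, the helper T cells that direct other immune cells, taken from spleens of wild-type C57BL/6 mice. All of them had been activated for 3 days through the T cell receptor and its co-receptor (plate-bound anti-CD3 at 2 µg/ml with anti-CD28 at 1 µg/ml) and left to rest overnight. Cells were then collected after 0.5, 2, 4 and 24 h with interleukin-2 (IL-2), after the same 4 times with interleukin-21 (IL-21), or without any cytokine (the control). There was 1 RNA-seq library for each of these 9 conditions, so a difference between 2 libraries has no replicate check and carries no p-value. No source used here gives the age of the mice, the number pooled or the cytokine doses of the RNA cultures. The control carries no time, so in any comparison with it the hours of culture and the cytokine cannot be told apart.

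Glycolysis splits glucose into pyruvate in the cytosol, and lactate dehydrogenase turns pyruvate into lactate, which lets the pathway run on when mitochondria do not take the pyruvate up. The pentose phosphate pathway branches off after the hexokinase step and yields NADPH and ribose for nucleotides, while pyruvate dehydrogenase feeds the TCA cycle in the mitochondrial matrix. Activated T cells are known for strong aerobic glycolysis, and IL-2, which signals through STAT5 and through kinases of the mTOR pathway, is known to sustain it, whereas IL-21 signals mainly through STAT3.

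Library totals lay between 29487905 and 44280989 reads. Levels are given in RPKM, reads scaled to transcript length and to the library total, on which scale 1 read in a transcript of 1 kb was worth 0.0226 to 0.0339 RPKM. Markers of CD4+ T cells (Cd4, Cd3d, Cd3e, Cd3g and Cd5) summed to 1279, 913, 774 and 725 RPKM after 0.5, 2, 4 and 24 h of IL-2, to 1144, 924, 989 and 1219 RPKM after the same times of IL-21 and to 1265 RPKM in the control. The 3 B cell markers Cd79a, Cd79b and Ms4a1 were all detected and summed to 38.8, 32.9, 33.4 and 17.2 RPKM with IL-2, to 39.2, 29.9, 23.9 and 6.50 RPKM with IL-21 and to 42.0 RPKM in the control. Both 24 h libraries thus held less B cell RNA than the control. The other lists were small: 6.27 to 11.3 RPKM for CD8 T cells, 2.79 to 8.27 RPKM for 5 macrophage genes and 2.02 to 6.03 RPKM for 3 NK cell genes, the last highest after 24 h of IL-21. Dendritic and erythroid genes summed to at most 1.81 RPKM, and the erythroid gene Hba-a1 was at 0 in the 0.5 h IL-21 library. These are bulk samples, in which fewer cells of a type and less RNA per cell cannot be told apart, and the part of these shifts in the results below was not tested.

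Differences between 2 libraries are given as the difference of log2(RPKM + 1), and a member was counted as higher or lower when that difference reached 2-fold. Over the 8 comparisons with the control and the 4 between cytokines at the same time, 17 of the 49 members passed 2-fold at least once, against 26.6% of all 11047 genes tested: 12 of 16 in glycolysis, 2 of 7 in the pyruvate dehydrogenase link, 2 of 19 in the TCA cycle and 1 of 7 in the pentose phosphate pathway. The other 32 members stayed under 2-fold in each of the 12 comparisons.

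Against the control, IL-2 left all 49 members under 2-fold after 0.5 h, when 0.407% of all genes tested were higher and 0.0362% lower. After 2 h of IL-2 1 member was higher (Hk2; 3.15% of all genes) and 1 lower (Pdk2; 1.31%). After 4 h 2 were higher (Hk2 and Idh3a; 5.38% of all genes) and 2 lower (Aldoa and Pdk2; 3.3%). After 24 h of IL-2 9 members were higher (Hk2, Pfkl, Tpi1, Pgam1, Eno1, Pkm2, Ldha, Idh3a and Tkt; 9.58% of all genes) and 1 lower (Pdk2; 6.64%). With 7 of the 9 in glycolysis, that pathway had 7 of its 16 members past 2-fold, against 1 of 19 in the TCA cycle and 1 of 7 in the pentose phosphate pathway. With TMM scaling 8 members were higher (7.91% of all genes), Pkm2 no longer among them. With upper quartile scaling 7 were (6.39% of all genes), without Pkm2 and Tkt. Glycolysis had 6 of 16 under either.

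With IL-21 fewer members passed 2-fold at 24 h. Hk2 alone was 2-fold higher after 0.5 h of IL-21 (0.326% of all genes higher, 0.0543% lower). After 2 h Hk2 was higher (1.72% of all genes) and Pfkm and Pdk1 were lower (1.18%). After 4 h Pdk1 was lower (1.32% of all genes) and no member was higher (1.21%). After 24 h Aldoa and Pgk1 were lower (1.86% of all genes) and no member was higher (1.62%). Several values lay close to the 2-fold line. Those just inside included Pdk1 at -1.03 and Pfkm at -1.04 after 2 h of IL-21 and Pkm2 at 1.07 after 24 h of IL-2. Those just outside included Hk2 at 0.996 after 0.5 h of IL-2 and Gapdh at -0.996 after 24 h of IL-21. Further ones outside were Pfkl at -0.995 and Pdk2 at -0.977 after 2 h of IL-21. Suclg2 was at 0.969 after 4 h of IL-2. On this scale a difference of 1 is 2-fold, and the pseudocount makes the change of low genes smaller. The RPKM of Hk2 itself was thus 2.19 times the control's after 0.5 h of IL-2. That of Suclg2 was 2.05 times the control's after 4 h of IL-2.

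**Figure D1:**
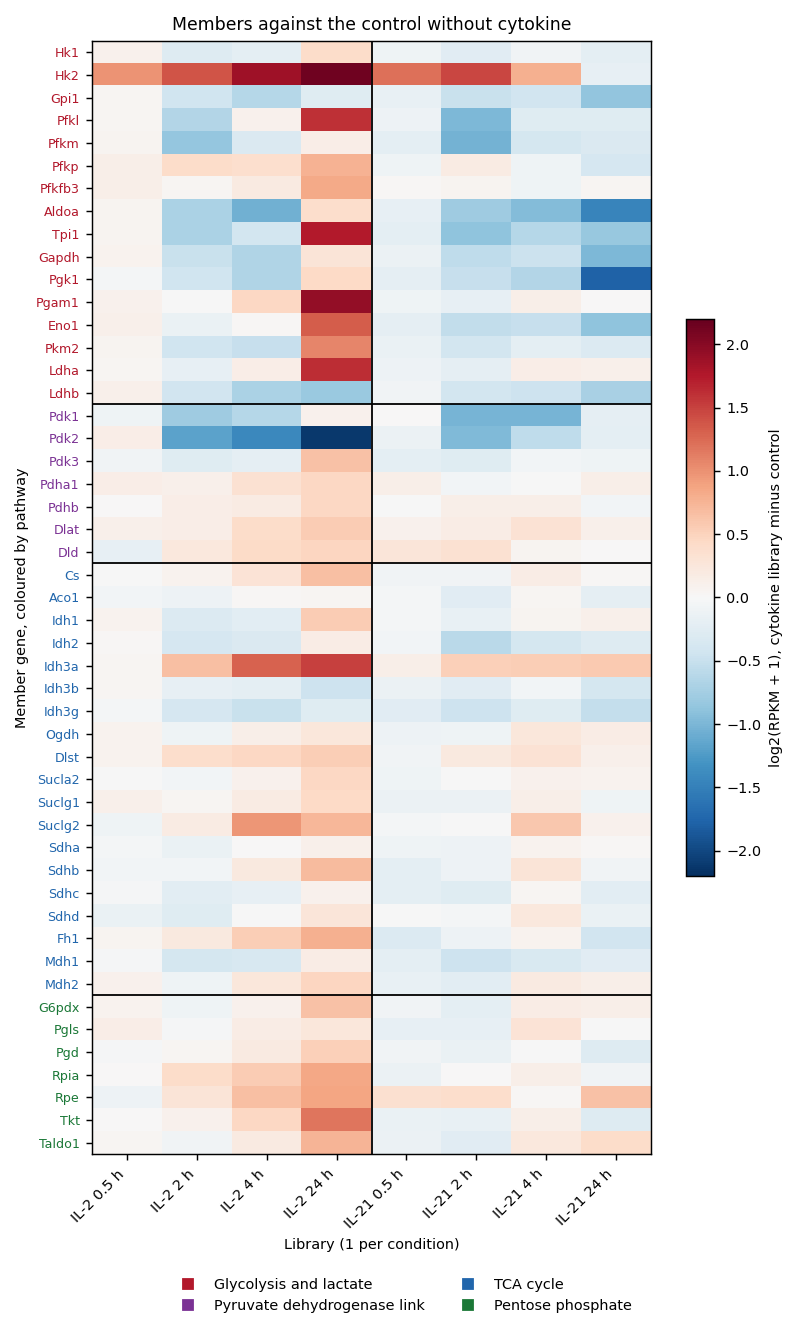
Difference of each of the 49 members from the control without cytokine, as log2(RPKM + 1) of the cytokine library minus the control (colour, red higher, blue lower), with libraries in columns in time order (IL-2 left, IL-21 right) and genes in rows grouped and coloured by pathway. Red concentrates in the glycolysis rows of the 24 h IL-2 column, where the pathway's median is 0.80, while the same rows of the 24 h IL-21 column have a median of -0.34.

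At 24 h of IL-2 the median difference from the control was 0.80 for glycolysis, 0.46 for the pyruvate dehydrogenase link, 0.44 for the TCA cycle and 0.75 for the pentose phosphate pathway, against 0.05 over all genes tested. After 24 h of IL-21 the glycolysis median was -0.34, and those of the other 3 groups lay between -0.08 and -0.01. At 24 h of IL-2 44 of the 49 members stood above the control (5799 of all 11047 genes). At 24 h of IL-21 18 of 49 did (5478 of all genes). The split depends on scaling: scaling by the upper quartile in place of the library total shifted the median of all genes by -0.16 in the 24 h IL-2 comparison, left 37 members above the control and took the share of 2-fold genes that were higher to 41.0%, against 59.0%.

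At 2 and 4 h both cytokines gave a lower glycolysis median than the control. It was -0.43 after 2 h and -0.26 after 4 h of IL-2, and -0.45 and -0.33 after the same times of IL-21. The median of all genes lay between -0.04 and 0.01 in these 4 comparisons. At 2 h 13 of the 16 glycolytic members were below the control with either cytokine. Below it were also 5982 of all 11047 genes tested with IL-2 and 6097 with IL-21. The TCA cycle median stayed between -0.11 and 0.10 over the same libraries. Both courses were set against the same control library.

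Summed over its members, glycolysis measured 5198, 3719, 3586 and 8443 RPKM after 0.5, 2, 4 and 24 h of IL-2, 4479, 3502, 3693 and 2801 RPKM after the same times of IL-21 and 4973 RPKM in the control. The IL-2 course thus dipped below the control at 2 and 4 h and ended above it, while the IL-21 course ended at its lowest value. The TCA cycle summed to 762, 710.0, 812 and 962 RPKM with IL-2, 689.5, 673, 812 and 712 RPKM with IL-21 and 761 RPKM in the control. For the pentose phosphate pathway the sums were 236, 238, 286 and 401 RPKM with IL-2, 213, 208, 259 and 236 RPKM with IL-21 and 229.9 RPKM in the control. Both of these sums lay closer to the control than that of glycolysis, apart from the pentose phosphate sum at 24 h of IL-2, and a sum is carried by its most abundant genes: in the control these were Gapdh, Pgk1, Aldoa and Pkm2 in glycolysis and Tkt, Taldo1 and Pgls in the pentose phosphate pathway.

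**Figure D2:**
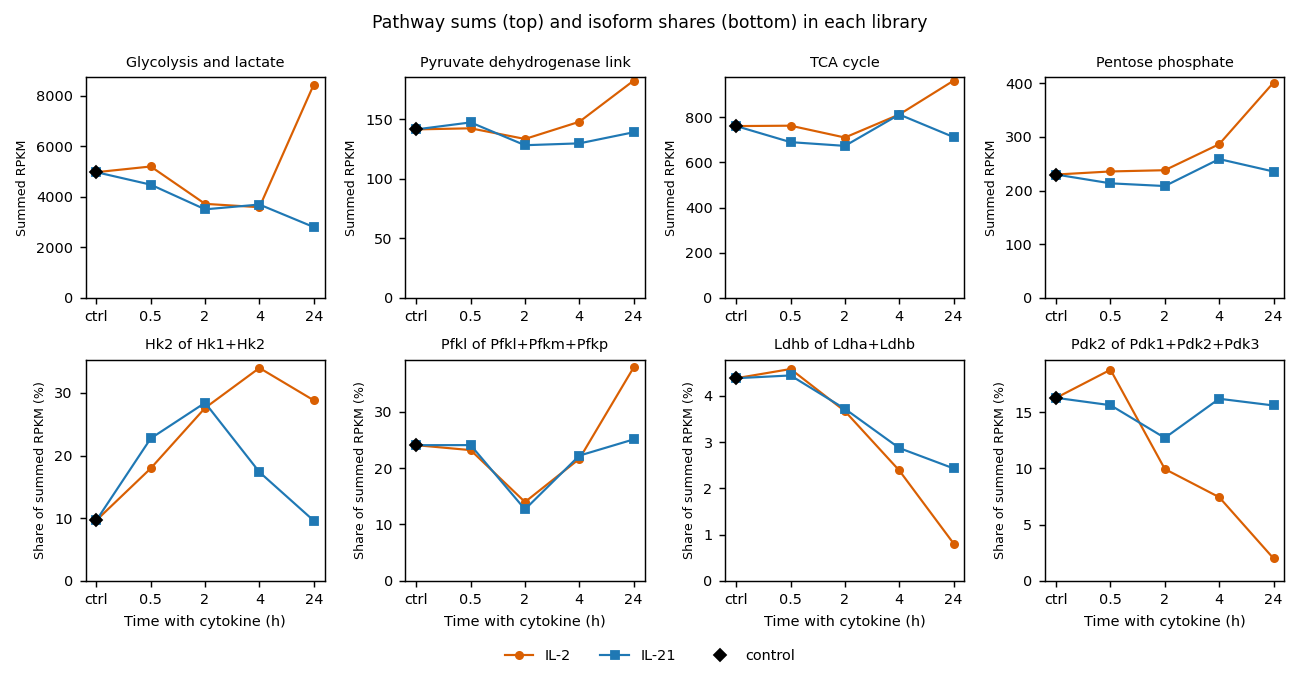
Top, summed RPKM of each pathway's members, and bottom, the share (%) of 1 isoform in the summed RPKM of its isoforms, in each library, with IL-2 (circles), IL-21 (squares) and the control (diamond) and time on an evenly spaced axis that is not to scale. The glycolysis sum is highest after 24 h of IL-2 (8443 RPKM) and lowest after 24 h of IL-21 (2801 RPKM), while the share of Pdk2 ends at 1.99% with IL-2 and 15.6% with IL-21.

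Hexokinase traps glucose in the cell by phosphorylating it. Hk2, the inducible hexokinase of muscle, tumours and activated lymphocytes, stood at 11.3, 15.0, 21.5 and 26.1 RPKM after 0.5, 2, 4 and 24 h of IL-2, at 13.3, 16.1, 9.61 and 4.43 RPKM after the same times of IL-21 and at 5.16 RPKM in the control. With either cytokine it was above the control for the first 4 h, and at 24 h it was highest with IL-2 and below the control with IL-21. The 24 h ratio of IL-2 to control was 5.05 (95% counting interval 4.71 to 5.42), that of IL-21 to control 0.858 (0.784 to 0.940) and that of IL-2 to IL-21 5.88 (5.48 to 6.32). Such intervals cover counting error only. Hk1, the constitutive hexokinase, varied less, with 51.6, 39.4, 41.7 and 64.4 RPKM under IL-2, 45.4, 40.6, 45.8 and 41.8 RPKM under IL-21 and 48.4 RPKM in the control. Hk2 made up 17.9, 27.6, 34.0 and 28.8% of the summed RPKM of the pair with IL-2, 22.7, 28.4, 17.4 and 9.59% with IL-21 and 9.65% in the control, so Hk1 remained the more abundant of the pair in every library.

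Phosphofructokinase catalyses the committed step of glycolysis, and its subunit genes had different courses. The platelet-type gene Pfkp was the most abundant, with 54.3, 66.1, 64.4 and 85.0 RPKM after 0.5, 2, 4 and 24 h of IL-2, 46.4, 56.3, 46.5 and 38.3 RPKM with IL-21 and 49.5 RPKM in the control. The liver-type gene Pfkl measured 19.0, 11.4, 19.6 and 57.4 RPKM with IL-2, 16.9, 8.68, 15.0 and 15.0 RPKM with IL-21 and 18.3 RPKM in the control. At 2 h Pfkl lay below the control with both cytokines, and at 24 h of IL-2 it was 3.14 (95% counting interval 2.99 to 3.29) times the control, against 0.818 (0.771 to 0.868) times with IL-21. Its share of the summed RPKM of the 3 subunit genes was 37.9% at 24 h of IL-2, 25.1% at 24 h of IL-21 and 24.1% in the control. The muscle-type gene Pfkm was the least abundant, with 8.66, 4.12, 6.48 and 9.27 RPKM under IL-2, 7.003, 3.51, 6.06 and 6.41 RPKM under IL-21 and 8.28 RPKM in the control, and its low point was 2 h with either cytokine. Pfkfb3, which makes an activator of phosphofructokinase, stayed between 6.79 and 8.63 RPKM in 8 libraries and measured 13.9 RPKM at 24 h of IL-2.

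Gpi1, the isomerase between hexokinase and phosphofructokinase, was not high at 24 h of IL-2: it measured 317.5, 226, 198 and 255 RPKM with IL-2, 275, 219, 229 and 167 RPKM with IL-21 and 307 RPKM in the control, which put it below the control in every cytokine library but that at 0.5 h of IL-2. Aldoa, the aldolase that splits fructose bisphosphate, showed the dip and return most clearly. Its levels were 642, 377, 295 and 804 RPKM after 0.5, 2, 4 and 24 h of IL-2, 539, 355, 315.6 and 225 RPKM after the same times of IL-21 and 613 RPKM in the control. At 24 h it was 1.31 times the control with IL-2 and 0.366 times with IL-21. Tpi1, which interconverts the triose phosphates, measured 159, 93.9, 115 and 512 RPKM with IL-2, 132, 82.1, 98.9 and 85.7 RPKM with IL-21 and 153 RPKM in the control. Below the control at 2 and 4 h with both cytokines, Tpi1 reached 3.35 (95% counting interval 3.27 to 3.43) times the control at 24 h of IL-2, against 0.561 (0.542 to 0.580) times at 24 h of IL-21.

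The lower part of the pathway, from glyceraldehyde phosphate to pyruvate, yields ATP and NADH. Gapdh, its dehydrogenase and the most abundant member, stood at 1775, 1193, 1058 and 2037 RPKM after 0.5, 2, 4 and 24 h of IL-2, 1527, 1141, 1212 and 839 RPKM with IL-21 and 1674 RPKM in the control. Pgk1, the first ATP-yielding kinase, measured 638, 483, 411 and 889 RPKM with IL-2, 572, 459, 417 and 190.3 RPKM with IL-21 and 654 RPKM in the control. Both were below the control at 2 and 4 h with either cytokine, and at 24 h they parted: Pgk1 was 1.36 (95% counting interval 1.34 to 1.38) times the control with IL-2 and 0.291 (0.285 to 0.297) times with IL-21, the lowest glycolytic ratio of that library. Pgam1, the phosphoglycerate mutase, had 97.5, 90.8, 125 and 351 RPKM with IL-2, 85.7, 80.7, 100.3 and 92.4 RPKM with IL-21 and 91.6 RPKM in the control. It stayed near the control throughout the IL-21 course and was 3.83 (95% counting interval 3.72 to 3.94) times the control at 24 h of IL-2. Eno1, the enolase, measured 425, 355, 397 and 983 RPKM with IL-2, 343, 269, 276 and 213 RPKM with IL-21 and 391 RPKM in the control. Eno1 has a near-identical copy, Gm5506, that is listed apart with 394 RPKM at 24 h of IL-2, 86.0 RPKM at 24 h of IL-21 and 156 RPKM in the control, so how reads were divided between them is uncertain. Gapdh, Aldoa, Pgk1, Tpi1, Pgam1, Pkm2 and Ldha also have processed copies in the mouse genome, and no source used here says how reads matching several places were counted.

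Pyruvate kinase (listed as Pkm2, the older symbol of Pkm) and the lactate dehydrogenases end the pathway. Pkm2 measured 572, 404, 382 and 1149 RPKM after 0.5, 2, 4 and 24 h of IL-2, 492, 412, 472 and 445 RPKM after IL-21 and 545 RPKM in the control. Its transcripts share most exons, so the levels do not separate its splice forms. Ldha, the subunit that favours lactate formation, had 401, 341, 432 and 1196 RPKM with IL-2, 361, 339.9, 428 and 421 RPKM with IL-21 and 388 RPKM in the control. Both were at least 2-fold above the control at 24 h of IL-2 and in no other library, Ldha by a ratio of 3.08 (95% counting interval 3.03 to 3.13). Ldhb, the subunit common in oxidative tissues, was lower at the later times, with 19.2, 13.0, 10.5 and 9.72 RPKM with IL-2, 16.8, 13.1, 12.7 and 10.5 RPKM with IL-21 and 17.8 RPKM in the control. Its 24 h ratio to the control was 0.546 (95% counting interval 0.482 to 0.617) with IL-2 and 0.589 (0.526 to 0.659) with IL-21, and the interval of IL-2 over IL-21 held 1 (0.811 to 1.06). With Ldha high, Ldhb made up 0.806% of the summed RPKM of the pair at 24 h of IL-2, 2.43% at 24 h of IL-21 and 4.38% in the control.

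**Figure D3:**
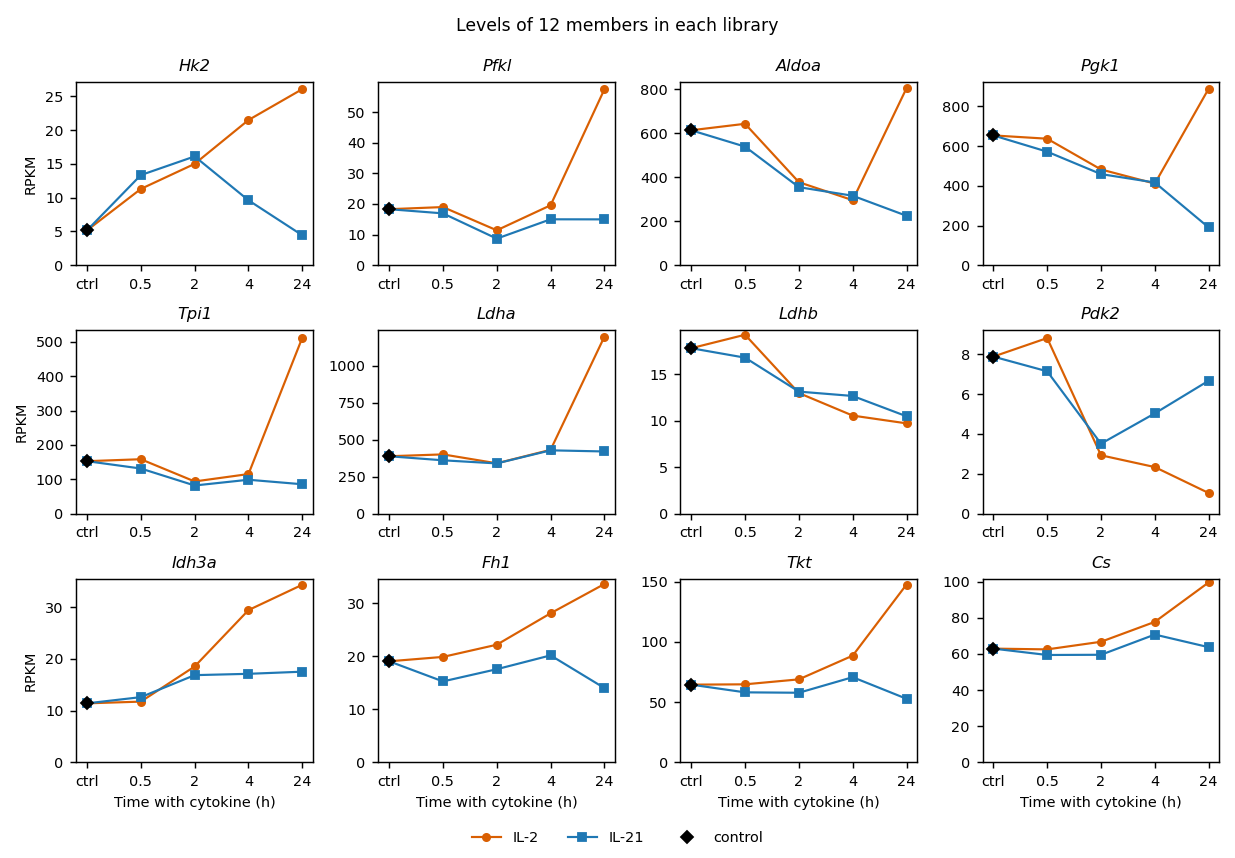
RPKM of 12 members in each library, with the control (diamond) at the left of each panel and time with IL-2 (circles) or IL-21 (squares) on an evenly spaced axis that is not to scale, 1 library per point. All but Ldhb and Pdk2 have their highest value at 24 h of IL-2. Of these, Hk2, Pfkl, Aldoa, Pgk1, Tpi1, Fh1 and Tkt end below the control with IL-21. Pdk2 ends at 1.04 RPKM at 24 h of IL-2, against 6.67 RPKM at 24 h of IL-21.

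Promoter sequence is shown for 4 of the glycolytic members that were higher with IL-2 than IL-21 at 24 h (Hk2, Pgk1, Pgam1 and Ldha) and for Pdk2, which was lower, all of them chosen among members whose window held the motif below. Of the 11 glycolytic members higher with IL-2 at 24 h, 5 held no such match (Pfkl, Pfkp, Tpi1, Gapdh and Eno1), among them Tpi1, with the highest ratio. The windows hold the 250 bases before a gene's start in the RefSeq table of GRCm38.p6, 5′ to 3′ on the gene's strand. Ldha and Pdk2 have 2 windows each in that table, and the one shown was picked by its motif content. Every match to ACGTG, the core that hypoxia-inducible factors and bHLH factors such as MYC can bind, is in capitals. CACGT is the same letters on the other strand, and CACGTG holds it on both. Hk2 lies at chr6:82774455-82774704, minus strand; Pgk1 at chrX:106186850-106187099, plus strand; Pgam1 at chr19:41911621-41911870, plus strand; Ldha at chr7:46845554-46845803, plus strand; and Pdk2 at chr11:95041372-95041621, minus strand.
Hk2: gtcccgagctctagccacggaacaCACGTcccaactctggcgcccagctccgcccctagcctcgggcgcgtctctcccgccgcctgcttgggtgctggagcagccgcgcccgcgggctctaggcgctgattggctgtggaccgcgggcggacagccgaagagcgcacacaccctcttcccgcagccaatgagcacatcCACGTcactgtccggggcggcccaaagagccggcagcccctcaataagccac
Pgk1: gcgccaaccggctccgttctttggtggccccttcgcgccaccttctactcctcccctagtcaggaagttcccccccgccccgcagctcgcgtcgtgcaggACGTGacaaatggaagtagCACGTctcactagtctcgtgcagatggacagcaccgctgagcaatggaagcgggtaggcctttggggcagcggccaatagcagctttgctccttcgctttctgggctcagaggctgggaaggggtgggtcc
Pgam1: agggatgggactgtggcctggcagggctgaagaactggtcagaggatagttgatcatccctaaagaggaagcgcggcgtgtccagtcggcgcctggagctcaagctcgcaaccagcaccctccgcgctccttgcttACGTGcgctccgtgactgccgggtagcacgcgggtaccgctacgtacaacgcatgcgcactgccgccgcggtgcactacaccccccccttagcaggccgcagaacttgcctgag
Ldha: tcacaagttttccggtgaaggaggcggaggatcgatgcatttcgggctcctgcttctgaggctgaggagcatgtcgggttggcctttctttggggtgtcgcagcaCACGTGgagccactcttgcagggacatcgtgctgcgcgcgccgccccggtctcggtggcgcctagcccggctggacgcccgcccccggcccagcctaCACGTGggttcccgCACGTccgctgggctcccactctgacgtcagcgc
Pdk2: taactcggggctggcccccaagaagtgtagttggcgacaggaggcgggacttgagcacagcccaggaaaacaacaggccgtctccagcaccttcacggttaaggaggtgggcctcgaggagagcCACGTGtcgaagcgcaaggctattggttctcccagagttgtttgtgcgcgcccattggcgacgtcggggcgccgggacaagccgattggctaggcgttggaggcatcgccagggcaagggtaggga

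These windows held 2 matches for Hk2, 2 for Pgk1, 1 for Pgam1, 5 for Ldha and 2 for Pdk2, the last in a single palindrome. Promoters of 47 of the 49 members could be matched, with Pkm2 looked up as Pkm. Idh3a and Sdhc had no entry. A gene counted when any of its windows held the motif, and the 27025 genes of the table had 32851 windows. Among the members Ogdh had 6 windows, Pfkm 4, and Aldoa and Eno1 3 each, so such genes had more chances of a match. ACGTG on either strand was found in 15 of the 47 (31.9%), against 18.5% of 27025 genes in the table: 8 of 16 in glycolysis, 3 of 7 in the pyruvate dehydrogenase link, 4 of 17 in the TCA cycle and 0 of 7 in the pentose phosphate pathway. The palindrome CACGTG, the E box, was in 5 of 47 (10.6%; Pfkm, Pfkfb3, Ldha, Pdk2 and Ogdh), against 6.86% of all genes. The STAT-type motif TTCNNNGAA, a palindrome that STAT proteins can bind, was in 1 of 47 (2.13%; Pfkm), against 8.13% of all genes. These matches describe letters in a window and were not tested against the expression values.

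The pyruvate dehydrogenase complex turns pyruvate into acetyl-CoA, and the kinases Pdk1 to Pdk3 switch it off by phosphorylation. Pdk2 measured 8.81, 2.93, 2.34 and 1.04 RPKM after 0.5, 2, 4 and 24 h of IL-2, 7.14, 3.51, 5.03 and 6.67 RPKM after the same times of IL-21 and 7.88 RPKM in the control. It was lower at each later time of IL-2, while with IL-21 it was low at 2 h and near the control at 24 h. The 24 h ratio was 0.132 (95% counting interval 0.102 to 0.168) for IL-2 over control, 0.847 (0.754 to 0.9504) for IL-21 over control and 0.156 (0.1204 to 0.199) for IL-2 over IL-21. Pdk1, a known target of hypoxia-inducible factor, measured 24.4, 14.7, 16.6 and 28.0 RPKM with IL-2, 26.3, 12.3, 12.3 and 22.7 RPKM with IL-21 and 26.1 RPKM in the control, with its low points at 2 and 4 h. Pdk3 had 13.8, 11.9, 12.6 and 23.3 RPKM with IL-2, 12.4, 11.9, 13.8 and 13.4 RPKM with IL-21 and 14.5 RPKM in the control, and was highest at 24 h of IL-2. Pdk2 accounted for 18.8, 9.93, 7.43 and 1.99% of the summed RPKM of the 3 kinases with IL-2, 15.6, 12.7, 16.2 and 15.6% with IL-21 and 16.3% in the control. The complex itself was steadier: Pdha1, its catalytic subunit, measured 41.2, 39.8, 46.6 and 51.2 RPKM with IL-2, 40.7, 35.2, 36.9 and 40.6 RPKM with IL-21 and 36.9 RPKM in the control, and Pdhb, Dlat and Dld each varied by 1.44 to 1.60 times between their lowest and highest library.

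In the TCA cycle the member that differed most from the control was Idh3a, the catalytic subunit of the NAD-dependent isocitrate dehydrogenase. It stood at 11.7, 18.5, 29.4 and 34.3 RPKM after 0.5, 2, 4 and 24 h of IL-2, at 12.6, 16.8, 17.1 and 17.5 RPKM with IL-21 and at 11.4 RPKM in the control. Above the control in all 8 cytokine libraries, Idh3a reached 3.02 (95% counting interval 2.80 to 3.25) times its level at 24 h of IL-2 and 1.54 (1.42 to 1.67) times at 24 h of IL-21. The partner subunits were below the control at 24 h with both cytokines: Idh3b measured 52.1 RPKM with IL-2, 54.5 RPKM with IL-21 and 71.8 RPKM in the control, and Idh3g 48.4 RPKM with IL-2, 40.5 RPKM with IL-21 and 58.6 RPKM in the control. As a share of the summed RPKM of the 3 subunit genes, Idh3a was 8.23, 14.6, 22.2 and 25.5% with IL-2, 9.89, 14.1, 12.7 and 15.6% with IL-21 and 8.04% in the control. The NADP-dependent enzymes stayed under 2-fold in each comparison: cytosolic Idh1 lay between 1.62 and 3.74 RPKM and mitochondrial Idh2 between 10.8 and 18.9 RPKM.

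Fumarase, Fh1, measured 19.9, 22.2, 28.1 and 33.6 RPKM with IL-2, 15.2, 17.5, 20.2 and 14.0 RPKM with IL-21 and 19.0 RPKM in the control. It lay above the control in each IL-2 library, if barely at 0.5 h, and was 2.403 (95% counting interval 2.21 to 2.61) times as high at 24 h of IL-2 as at 24 h of IL-21. Citrate synthase (Cs), which starts the cycle, had 62.5, 66.8, 77.8 and 99.6 RPKM with IL-2, 59.4, 59.5, 70.8 and 63.8 RPKM with IL-21 and 63.0 RPKM in the control, and its 24 h ratio to the control was 1.58 with IL-2 and 1.01 with IL-21. Ogdh, the oxoglutarate dehydrogenase, kept between 20.8 and 26.96 RPKM over the 9 libraries. Among the subunits of succinate dehydrogenase, the enzyme shared with the respiratory chain, Sdhb reached 102 RPKM at 24 h of IL-2, against 58.7 RPKM at 24 h of IL-21 and 62.3 RPKM in the control, while Sdha, the most even of the 49 members, kept within 53.9 to 64.2 RPKM. Suclg2, a subunit of the GTP-forming succinyl-CoA ligase, peaked at 4 h with 21.1 RPKM after IL-2 and 16.1 RPKM after IL-21, against 10.3 RPKM in the control. Each of the other 8 cycle members (Aco1, Dlst, Sucla2, Suclg1, Sdhc, Sdhd, Mdh1 and Mdh2) varied by 1.25 to 1.63 times between its lowest and highest library.

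All 7 pentose phosphate members stood above the control at 24 h of IL-2 (5799 of all 11047 genes). At 24 h of IL-21 3 of 7 did (5478 of all genes). G6pdx, the glucose-phosphate dehydrogenase that commits glucose to the pathway, measured 15.8, 13.8, 15.9 and 23.7 RPKM with IL-2, 14.0, 12.8, 16.8 and 16.4 RPKM with IL-21 and 14.9 RPKM in the control. Pgd, the later NADPH-forming dehydrogenase, had 33.0, 34.3, 38.4 and 48.5 RPKM with IL-2, 31.5, 30.1, 33.3 and 27.4 RPKM with IL-21 and 33.4 RPKM in the control. Neither dehydrogenase reached 2-fold. Tkt, the transketolase of the non-oxidative branch, which links pentoses back to glycolysis, had the highest ratio of the pathway at 24 h of IL-2. Its levels were 64.7, 68.9, 88.6 and 148 RPKM with IL-2, 58.1, 57.7, 70.7 and 52.7 RPKM with IL-21 and 64.5 RPKM in the control, a 24 h ratio of 2.29 (95% counting interval 2.23 to 2.36) for IL-2 over control and 0.818 (0.791 to 0.846) for IL-21 over control. Rpia, the ribose phosphate isomerase, was higher at each later time of IL-2, at 13.4, 18.0, 20.3 and 24.9 RPKM, and stood at 12.1, 13.5, 14.7 and 12.6 RPKM with IL-21 and 13.4 RPKM in the control. Taldo1, the transaldolase, was above the control at 24 h with both cytokines, at 83.8 RPKM with IL-2 and 65.5 RPKM with IL-21, against 49.4 RPKM in the control. The epimerase Rpe spanned 10.4 to 21.28 RPKM and the lactonase Pgls 38.1 to 53.6 RPKM, each with its highest value in a cytokine library.

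Set against each other at the same time, the cytokines put members past 2-fold from 4 h on. After 0.5 and 2 h no member differed by 2-fold between IL-2 and IL-21, when 0.217% and 0.643% of all genes were higher with IL-2 and 0.29% and 0.688% lower. Smaller differences were seen early with scaling by the library total, which the intervals given next also use. The 95% counting interval of the IL-2 to IL-21 ratio lay above 1 in 32 members and below 1 in 5 at 0.5 h, and in 30 and 6 at 2 h. Such intervals were not computed for all genes. Of all 11047 genes tested, 7087 were higher with IL-2 by any amount at 0.5 h and 5983 at 2 h, against 41 and 34 of the 49 members. The glycolysis median was 0.20 at 0.5 h and 0.07 at 2 h, against 0.08 and 0.02 over all genes. These early values depend on scaling. With TMM scaling the 0.5 h median was 0.13 for glycolysis and 0.02 over all genes. Under TMM 36 of the 49 members were above 0 at 0.5 h and 33 at 2 h. At 4 h Hk2 alone passed 2-fold in either direction (3.9% of all genes did), and was higher with IL-2. At 24 h 13 of the 49 were higher with IL-2 (9.85% of all genes) and 1, Pdk2, was lower (6.06%). Of the 13, 11 were in glycolysis (Hk2, Pfkl, Pfkp, Aldoa, Tpi1, Gapdh, Pgk1, Pgam1, Eno1, Pkm2 and Ldha), and Fh1 and Tkt were the others. The ratios of IL-2 to IL-21 at 24 h ran highest in Tpi1, at 5.97 (95% counting interval 5.80 to 6.16), and Hk2, followed by Pgk1 at 4.67 (4.58 to 4.76), Eno1 at 4.63 (4.54 to 4.71) and Pfkl at 3.84 (3.65 to 4.03). For Tkt the ratio was 2.80 (2.72 to 2.88).

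The median difference at 24 h, IL-2 minus IL-21, was 1.44 for glycolysis, 0.45 for the pyruvate dehydrogenase link, 0.41 for the TCA cycle and 0.51 for the pentose phosphate pathway, against 0.07 over all genes. Above 0 were 15 of 16 glycolytic members (all but Ldhb), 6 of 7 of the pyruvate dehydrogenase link (all but Pdk2), 18 of 19 of the TCA cycle (all but Idh3b) and 7 of 7 of the pentose phosphate pathway. With upper quartile scaling these were 15, 6, 16 and 7, Pfkp lost its 2-fold call, and the glycolysis median was 1.28, with 47.9% of all 2-fold genes higher, against 61.9% under the library total. Counting error was small beside these differences: the 95% interval of the IL-2 to IL-21 ratio lay above 1 in 46 members, below 1 in 1 and held 1 in 2. Of all 11047 genes tested, 5961 were above 0, and intervals were not computed for them. The B cell marker sum was 17.2 RPKM in the 24 h IL-2 library and 6.50 RPKM in the 24 h IL-21 library, and the nuclear RNAs Malat1 and Neat1 summed to 111 RPKM with IL-2 and 419.5 RPKM with IL-21, against 231 RPKM in the control. Their part in the difference was not tested.

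**Figure D4:**
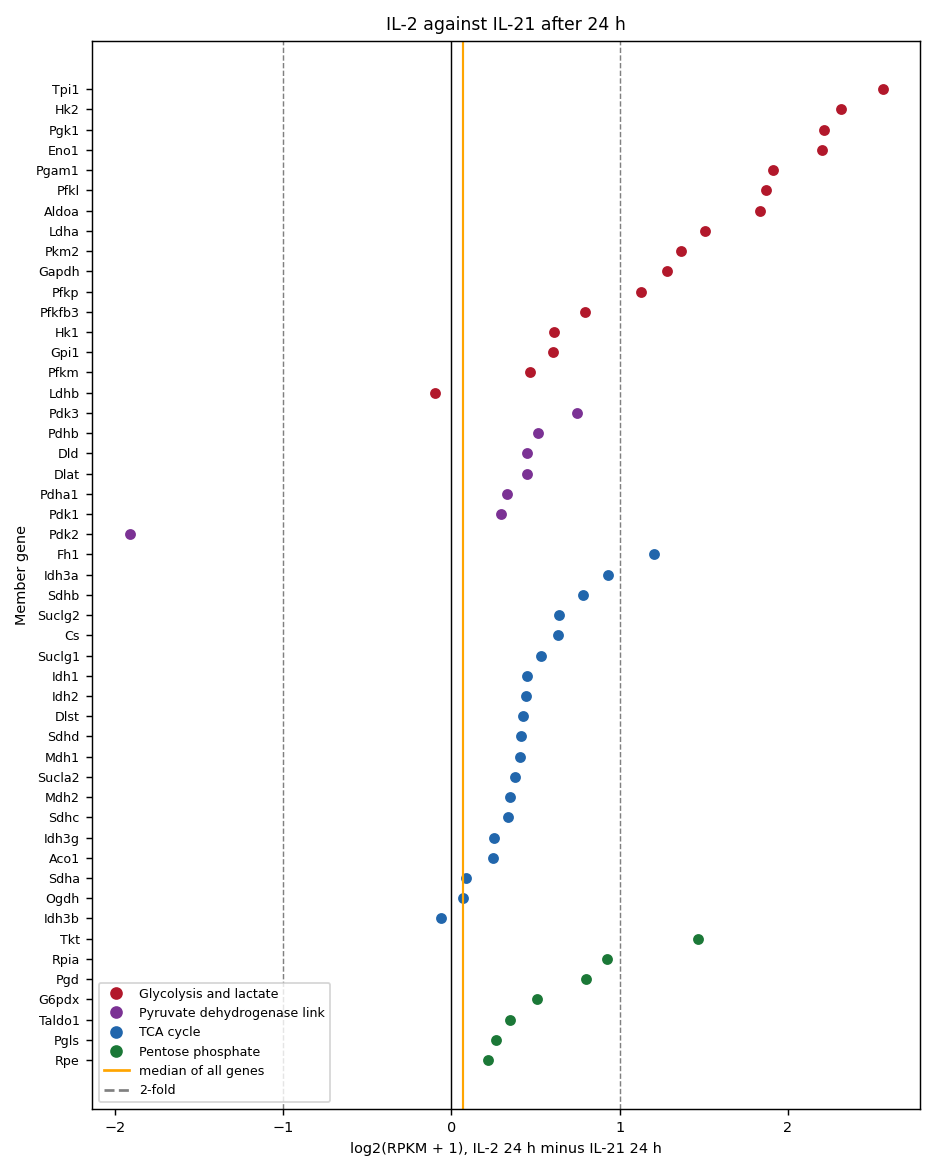
Difference of log2(RPKM + 1) between the 24 h IL-2 and the 24 h IL-21 library for each member (points, coloured by pathway and sorted within it), with dashed lines at 2-fold and an orange line at the median of all genes (0.07). Of the 13 points right of the right dashed line 11 are glycolytic, and Pdk2 at -1.91 is the only point left of the left one.

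Only a fit across times gives a test, with the 4 times of each cytokine standing in for replicates. It asks whether the IL-2 minus IL-21 difference, averaged over the times, exceeds its variation between times (edgeR quasi-likelihood F test with 3 residual degrees of freedom, Benjamini-Hochberg adjustment over 10437 genes). In this test each gene's variation is drawn toward a trend over all genes. A p-value therefore rests on more than the gene's own residual degrees of freedom. No member passed an adjusted p of 0.05, and 2 genes higher (0.0192% of those tested) and 2 lower (0.0192%) did. By edgeR 4 members had an unadjusted p under 0.05 (14.6% of all genes did, so the members' share is below that). They were Fh1, Rpia, Pfkp and Eno1, with an edgeR adjusted p of 0.297 to 0.34. DESeq2 also passed 0 members, with 9 at an unadjusted p under 0.05 (17.9% of all genes), and limma passed 0, with 4 (15.8%). The estimate was above 0 in 42 of the 49 members, and its median over all genes was -0.0013.

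Whether the courses parted with time was tested by the change of the IL-2 minus IL-21 log2 difference per doubling of time. The edgeR test was the same, with 2 residual degrees of freedom and the variation again drawn toward the trend over all genes. Hk2 and Pdk2 passed, among 2.14% of all genes with a positive and 2.08% with a negative change, so 2 of 49 members is close to the share of all genes. Per doubling of time the difference of Hk2 changed by 0.53 (SE 0.081, adjusted p = 0.0454) and that of Pdk2 by -0.55 (SE 0.074, adjusted p = 0.0454), both by edgeR. For Hk2 the difference of log2(RPKM + 1), IL-2 minus IL-21, was -0.22, -0.10, 1.08 and 2.32 at 0.5, 2, 4 and 24 h, positive at 2 of the 4 times. For Pdk2 it was 0.27, -0.20, -0.85 and -1.91, negative from 2 h on. Fitted with time as a straight line in log2 time instead of 4 levels, neither passed, each with an adjusted p of 0.127 by edgeR.

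Over all 49 members, Hk2 and Pdk2 included, the change with time was mostly positive, against a median of 2.27e-05 over all genes. It was above 0 in 15 of 16 glycolytic members, 6 of 7 of the pyruvate dehydrogenase link, 16 of 19 of the TCA cycle and 6 of 7 of the pentose phosphate pathway, and 18 of the 49 had an unadjusted p under 0.05, 10 of them glycolytic. Of all genes 31.7% did, a share close to that of the members. Nearest to the threshold by edgeR were Pfkl at 0.31 (SE 0.07, adjusted p = 0.0554), Eno1 at 0.34 (SE 0.076, adjusted p = 0.0555), Pgam1 at 0.31 (SE 0.079, adjusted p = 0.0648), Tkt at 0.24 (SE 0.06, adjusted p = 0.0654) and Tpi1 at 0.42 (SE 0.12, adjusted p = 0.0762). These counts rest on the last time: without the 24 h pair 22 of the 49 were above 0, with Hk2, Dld, Idh3a and Rpe passing upward and Pdk2 downward. Over the 10437 genes of that fit, 1079 passed upward and 546 downward. Without the 4 h pair 15 members passed, among 1178 genes upward and 1061 downward. Without the 0.5 h pair 12 did, among 919 and 1044, and without the 2 h pair 4, among 187 and 212.

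**Figure D5:**
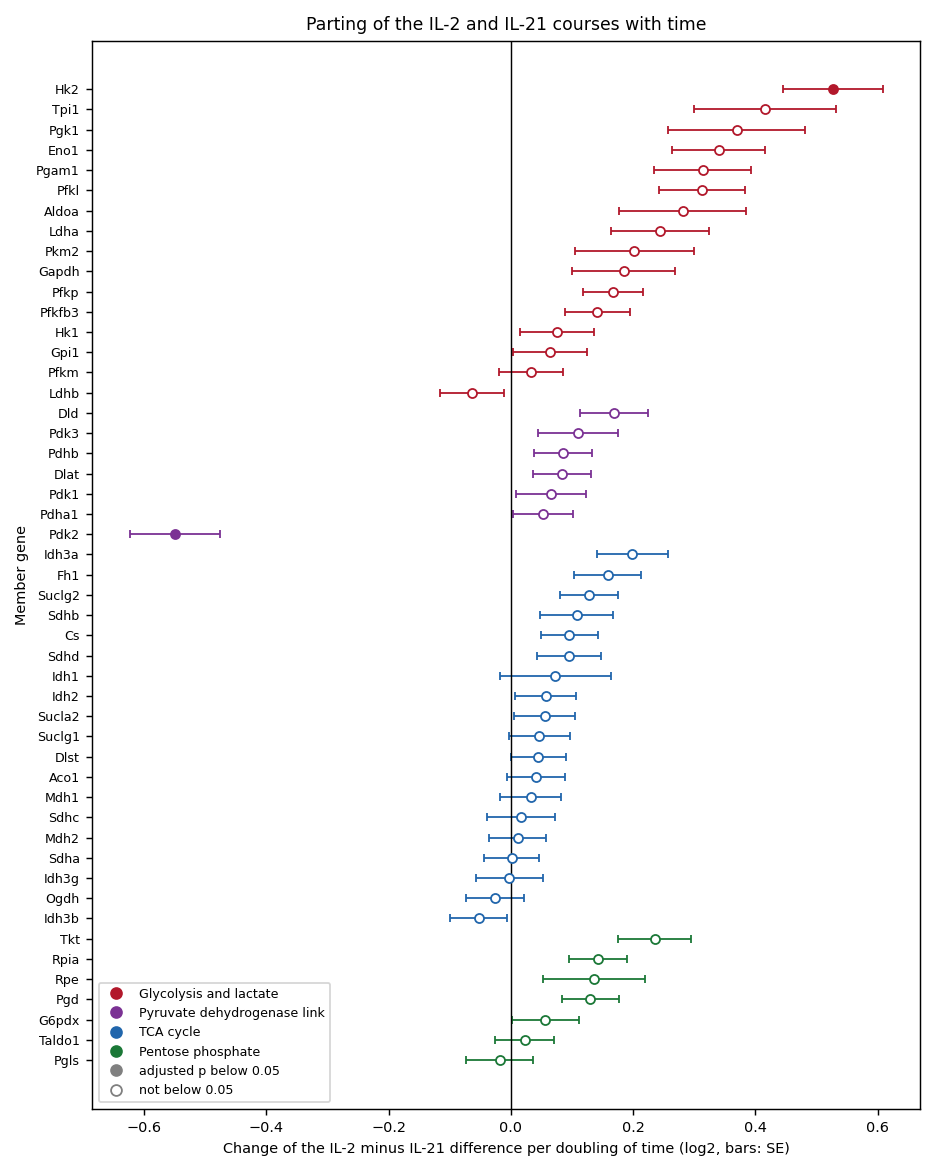
Change of the IL-2 minus IL-21 log2 difference per doubling of time for each member, from the edgeR fit over 8 cytokine libraries (points, bars 1 SE, coloured by pathway; filled points have an adjusted p below 0.05). Hk2 (0.53) and Pdk2 (-0.55) are the filled points, and most open points of glycolysis lie right of 0.

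Genes next to these pathways that are no members, from a list of transporters, other isoforms, branch enzymes and regulators, were counted in the same way. At 24 h of IL-2 10 of the 39 detected at 1 RPKM or more in any library were 2-fold above the control (9.58% of all genes). Another 3 were below (6.64%), and the median of the 39 was 0.31, against 0.05 over all genes. The lactate exporter Slc16a3 measured 79.7 RPKM, against 14.6 RPKM in the control, the glucose transporter Slc2a1 63.5 RPKM, against 15.0 RPKM, and the lactate carrier Slc16a1 28.6 RPKM, against 11.2 RPKM. Pyruvate carboxylase (Pcx), which refills the TCA cycle, had 14.4 RPKM, against 1.69 RPKM, and the citrate lyase Acly 93.5 RPKM, against 43.4 RPKM. The malic enzyme Me2, the ADP-dependent glucokinase Adpgk, the ribose phosphate kinase Prps1 and the oxygen sensors Egln1 and Egln3 were the others higher, while the neuronal enolase Eno2, the succinate dehydrogenase assembly factor Sdhaf1 and Txnip were lower. At 24 h of IL-21 0 of the 39 were 2-fold above the control (1.62% of all genes), with a median of 0.00. Below it were 2, the aldolase Aldoc and the carboxykinase Pck2 (1.86% of all genes). Between the cytokines at 24 h 11 of 39 were higher with IL-2 (9.85% of all genes) and 2 lower (6.06%), with a median of 0.44.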

How the data were processed

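Per the labels' protocols, stranded libraries were built from total RNA and run on Illumina machines. Tools named without a role, per the submitters' processing notes, are TopHat2 2.0.11, Bowtie 0.12.9, HOMER and SAMtools, with the mm9 build; how reads were counted, with which annotation and whether by strand, is not given in the sources used here. Each of the 9 deposited tables, per the file headers, lists 29543 RefSeq transcripts with a read count and an RPKM value that the authors scaled to transcript length and library total. The 19 chromatin samples of the 28 were not analysed.

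Transcripts under 200 bases (752) were left out, and each symbol kept the transcript with the highest mean RPKM (22470 symbols; several transcripts for 3961 of 23222 listed). A comparison of 2 libraries used log2(RPKM + 1), a pseudocount of 1, over 11047 genes of at least 1 RPKM in any library, called at 2-fold, with exact 95% conditional binomial intervals of the count ratio. The fits across times used the deposited read counts of 10437 genes (mean RPKM 1 or more), in edgeR 4.0.16 with TMM scaling, with limma 3.58.1 and DESeq2 1.42.0 as alternatives (R 4.3.3). Alternatives covered scaling, filter, pseudocount, fold, transcript choice, each time left out and the form of time. Library totals were 29487905 to 44280989 reads, and 3 reads in 1 kb, the limit below which a level was not resolved, came to 0.0677 to 0.102 RPKM. The labels do not say whether each library is a separate mouse or culture, so p-values apply to these libraries alone. They set the mean cytokine difference against its variation between times, and its change with time against departures from a line in log2 time. Neither is a spread between replicates, which these libraries cannot give. In both, edgeR drew each gene's variation toward a trend over all genes.

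Members, gene lists and tests were chosen with earlier results of these data known. Named by value are members past 2-fold in any of the 12 comparisons or past an adjusted p of 0.05, and genes of committed steps and isoforms (Hk1, Pfkfb3, Ldhb, Pdk3, Pdha1, Cs, Idh1, Idh2, Ogdh, G6pdx and Pgd); members named beyond these (Gpi1, Idh3b, Idh3g, Sdha, Sdhb, Suclg2, Rpia, Taldo1) and the regulator Hif1a were chosen after their values were seen. Promoter windows came from RefSeq's GRCm38.p6 table and were not converted to mm9. A few listed genes that are no members are not reported here.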

Additional observations from a re-analysis of the deposited data

Results flagged for a closer look

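Hk2 and Pdk2 are picked out because the test of the difference between the courses itself passed: the IL-2 minus IL-21 log2 difference changed by 0.53 (SE 0.081, adjusted p = 0.0454) per doubling of time for Hk2 and by -0.55 (SE 0.074, adjusted p = 0.0454) for Pdk2 (edgeR quasi-likelihood F test, Benjamini-Hochberg adjustment over 10437 genes). Hk2 measured 26.1 RPKM at 24 h of IL-2, 4.43 RPKM at 24 h of IL-21 and 5.16 RPKM in the control. Pdk2 measured 1.04 RPKM at 24 h of IL-2, 6.67 RPKM at 24 h of IL-21 and 7.88 RPKM in the control. Hk2 passed in 12 of 13 alternatives, with estimates of 0.43 to 0.68 and adjusted p of 2.76e-10 to 0.127. Pdk2 passed in 11 of 12, with estimates of -0.69 to -0.40 and adjusted p of 5.42e-07 to 0.127. The 24 h libraries also differ in their B cell marker sum (17.2 RPKM with IL-2, 6.50 RPKM with IL-21) and in Malat1 plus Neat1 (111 RPKM with IL-2, 419.5 RPKM with IL-21), whose part in the result was not tested.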

How the results depend on the processing

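A fold of 1.5 in place of 2 gave 1, 2, 4 and 20 members higher at 0.5, 2, 4 and 24 h of IL-2 against control (1.08, 9.22, 14.8 and 22.6% of all genes) and 6, 7 and 2 lower from 2 h on (7.1, 11.8 and 17.2%). For IL-21 it gave 2 and 1 higher at 4 and 24 h (5.59 and 6.14%) and 7, 4 and 7 lower from 2 h on (6.33, 5.47 and 7.57%), and between the cytokines 3 and 23 higher at 4 and 24 h (9.63 and 22.1%) and 1 lower at 4 h (6.1%). A pseudocount of 0.1 gave 1 member higher at 0.5 h of IL-2 (0.661% of all genes), 4 lower at 2 h of IL-21 (2.62%) and 1 lower between the cytokines at 4 h (3.1%). A pseudocount of 5 left 0 higher at 2 h of IL-2 (1.24%), at 0.5 h of IL-21 (0.163%) and between the cytokines at 4 h (0.96%); it left 0 lower at 2 h of IL-2 (0.444%), at 2 and 4 h of IL-21 (0.453 and 0.489%) and between the cytokines at 24 h (2.67%), and 1 lower at 4 h of IL-2 (1.27%). TMM scaling gave 2 lower at 4 h of IL-21 (1.59%). Upper quartile scaling gave 3 lower at 24 h of IL-21 (2.1%), Gapdh being added. For the mean cytokine difference, edgeR called 2 genes higher and 2 lower, against 248 and 202 with DESeq2, 1 higher with limma, 0 higher (1132 at an unadjusted p under 0.05) at a mean of 5 RPKM, 11 and 9 without a filter, 0 and 1 (1042 at an unadjusted p under 0.05) without the time term, and 0 to 56 higher and 0 to 64 lower with 1 time left out (0 of each without the 2, 4 or 24 h pair, with 1084, 692 and 1065 at an unadjusted p under 0.05; 56 and 64 without the 0.5 h pair). For the change with time, 223 genes higher and 217 lower became 723 and 679 with DESeq2, 373 and 349 with limma, 363 and 585 with upper quartile scaling, 142 higher at a mean of 5 RPKM, 554 and 476 without a filter, 0 and 0 (2016 at an unadjusted p under 0.05) with linear log2 time, and 187 to 1178 higher and 212 to 1061 lower with 1 time left out. The 1 member higher became 9 with DESeq2, 3 with upper quartile scaling, 6 without a filter, 0 with linear log2 time (13 at an unadjusted p under 0.05) and 3 to 14 with 1 time left out; the 1 lower became 0 at a mean of 5 RPKM, where Pdk2 was not tested, and 0 with linear log2 time. The cause was not tested. No value called in the main setting changed sign. Among members whose change with time was called only in other settings, the sign did change in Aldoa, Tpi1, Ldha, Pgk1, Gapdh and Pkm2. For Aldoa the estimates ran from -0.098 to 0.51. It did not change in Eno1, Pfkl, Pfkp, Pgam1, Tkt, Dld, Idh3a and Rpe. No paired analysis was possible because each condition has 1 RNA library without a replicate number; time entered the fits as a term instead. With 1 library per condition, depth limits low members such as Pdk2 (1.04 RPKM at 24 h of IL-2), and replicate error is unknown.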

Other observations

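Among the regulators listed beside these pathways, Myc, a transcription factor known to drive glycolytic genes, measured 269, 107, 107 and 93.6 RPKM after 0.5, 2, 4 and 24 h of IL-2, 139, 63.3, 35.8 and 33.4 RPKM after the same times of IL-21 and 65.1 RPKM in the control. It peaked at 0.5 h with both cytokines, stayed above the control throughout the IL-2 course and was below it from 2 h of IL-21 on. Hif1a, the hypoxia-inducible factor subunit that is regulated mainly as a protein, had 149, 87.0, 135 and 135 RPKM with IL-2, 176, 146, 117 and 124 RPKM with IL-21 and 132 RPKM in the control, and passed 2-fold in none of the 12 comparisons. Txnip, which restrains glucose uptake, was below the control in every cytokine library, at 213, 179.8, 131 and 58.9 RPKM with IL-2, 211, 209.7, 197 and 265 RPKM with IL-21 and 323 RPKM in the control.

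Slc2a3, the high-affinity glucose transporter of lymphocytes, had another course than Slc2a1. It measured 74.4, 18.7, 23.0 and 50.2 RPKM with IL-2, 67.6, 28.1, 41.3 and 43.1 RPKM with IL-21 and 77.9 RPKM in the control, so its low point was 2 h with either cytokine, whereas Slc2a1 had 30.7, 18.8, 26.9 and 63.5 RPKM with IL-2, 18.7, 16.6, 18.9 and 20.3 RPKM with IL-21 and 15.0 RPKM in the control and was above the control in all 8 cytokine libraries. Each of these values comes from 1 library and has no test.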
